A study of Oryza sativa with 6 samples.

Results

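The FRDL genes of rice encode citrate transporters of the MATE family, which carry organic compounds out of cells in exchange for cations. OsFRDL4 (Os01g0919100, LOC_Os01g69010), OsFRDL2 (Os10g0206800, LOC_Os10g13940) and OsFRDL1 (Os03g0216700, LOC_Os03g11734) were each measured by 1 probe set. They were found through the transcript assignments of the deposited table, as 3 of the 37345 genes that have a probe set of their own among 57258 probe sets. Citrate released into the soil or the xylem binds metal ions. Outside the root it holds aluminium (Al) in a form that harms the root tip less, and in the xylem it keeps iron soluble on its way to the shoot. OsFRDL4 is the plasma membrane transporter behind most of the citrate that rice roots release under Al. OsFRDL2 lies on vesicles inside the cell and adds to that release with a lower contribution to Al tolerance. OsFRDL1 loads citrate into the xylem from the pericycle and is needed for iron translocation. All 3 are relatives of FRD3, the citrate transporter of Arabidopsis thaliana.

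RNA was taken from root tips (0 to 1 cm) of 5-d-old seedlings of a Japonica rice and measured on 6 Affymetrix rice arrays. In 3 samples the tips came after 6 h in 50 µM Al at pH 4.5, and in the other 3 they came before Al. Both groups had been floated on 0.5 mM CaCl2. The labels call the samples biological repeats but do not say whether each was a separate culture, so the p-values rest on the spread among the 6 samples, which may be technical. No tips kept for 6 h without Al were analysed here, and the labels state a pH for the Al solution alone. Al, time and possibly pH therefore cannot be told apart.

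Between 25005 and 25492 probe sets were called present on the arrays after Al and between 24836 and 24927 on those before Al. Arrays of 1 group correlated at 0.987 over the tested probe sets, and arrays of different groups at 0.951 to 0.956. Tissue markers of the tip were present on all 6 arrays, among them the quiescent centre gene QHB, the ground tissue factors OsSHR1 and OsSCR1 and the auxin carrier OsPIN2. Signals below are on the log2 scale, 1 unit being a doubling. They compare 1 probe set between arrays and not different probe sets with each other. In whole tips, fewer cells of a type and less RNA per cell cannot be told apart.

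The 3 probe sets differ in the transcript matches that the annotation lists for them. All 11 probes of the OsFRDL4 probe set matched LOC_Os01g69010, whose product is described as FRD3. It aligned to chromosome 1, 40420561 to 40423832, on the plus strand with 100% identity. The OsFRDL2 probe set aligned to chromosome 10, 7339185 to 7345035, on the plus strand, with 11 matching probes and no cross-hybridising transcript in the annotation. The OsFRDL1 probe set aligned to chromosome 3, 6110960 to 6121896, on the minus strand. All 11 of its probes matched 2 transcript models of LOC_Os03g11734 and 10 matched the other, so the models cannot be told apart. The annotation lists 2 cross-hybridising gene models from another source for it, with 8 matching probes each, and 1 with 5 for OsFRDL4. Whether these models are other genes was not tested. These alignments are those of the deposited annotation, and no label or header names their genome build. The aligned span was 3272 bases for OsFRDL4, 5851 for OsFRDL2 and 10937 for OsFRDL1. The annotation predicted 7 membrane segments in OsFRDL4 and 9 in OsFRDL2. For OsFRDL1 it predicted 8 segments in the first 2 models of the locus and 6 in the shorter one.

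All 3 FRDL genes were higher after Al. Each passed the test (limma with an intensity trend, Benjamini-Hochberg adjusted p under 0.05 over 25283 probe sets called present on at least 3 arrays). OsFRDL4 reached this filter only through its calls after Al, as did each tested probe set below that was absent on every array before Al. Their p-values rest partly on absent signals and are no support on their own. Over all tested probe sets, 14.3% passed as higher and 30.2% passed in either direction. In each of the 3 genes the groups did not overlap, with every array after Al above every array before it. That holds for 19.6% of all tested probe sets. Over the 25283 probe sets the median log2 change was -0.04.

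OsFRDL4 had log2 signals of 10.53, 10.07 and 10.44 after Al, against 5.17, 3.11 and 5.44 before Al. It was called present on the 3 arrays after Al and absent on the 3 before it. The arrays after Al lay within 0.46 of each other, and the 3 absent signals before Al spread over 2.34, with the second array lowest. On the linear scale the signals were 1479, 1078 and 1393 after Al, against 36.0, 8.62 and 43.5 before Al. Its mean was 10.35 ± 0.24 after Al and 4.57 ± 1.28 before Al (SD, n = 3 each). The log2 change was 5.78 ± 0.50 (SE of the limma fit, adjusted p = 2.17e-05).

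Since OsFRDL4 was not called present before Al, its change has only a bound, at least 54.8-fold higher after Al. Without the second array before Al the bound was 33.0-fold, and without any other single array it was 51.5-fold to 74.1-fold. The authors' deposited table gives a fold of 44.8, the ratio of mean linear signals, with an unadjusted p of 0.0135. Presence on all 3 arrays after Al and on none before it was shared by 333 tested probe sets (1.32%).

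OsFRDL2 was present on all 6 arrays, with signals of 12.86, 12.67 and 12.68 after Al, against 11.80, 11.65 and 11.64 before Al. The arrays of a group lay within 0.19 of each other, and a gap of 0.87 separated the groups. Its mean was 12.74 ± 0.11 after Al and 11.70 ± 0.09 before Al (SD, n = 3 each). The log2 change of 1.04 ± 0.07 (SE) is a fold of 2.06, with a 95% interval from 1.85 to 2.30 (limma, adjusted p = 3.99e-06). The authors' deposited table gives a fold of 2.06 and an unadjusted p of 0.000272.

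OsFRDL1 had signals of 7.19, 7.58 and 7.20 after Al, against 6.16, 6.41 and 5.91 before Al, and was present on all 6 arrays. The second array was the highest in both groups, and the gap between the groups was 0.77. Its mean was 7.32 ± 0.22 after Al and 6.16 ± 0.25 before Al (SD, n = 3 each). The log2 change of 1.16 ± 0.21 (SE) is a fold of 2.24, with a 95% interval from 1.63 to 3.09 (limma, adjusted p = 0.00200). The authors' deposited table gives a fold of 2.24 and an unadjusted p of 0.00418. Among all tested probe sets, 3.88% had a larger log2 rise than OsFRDL1 and 4.51% a larger one than OsFRDL2.

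**Figure D1:**
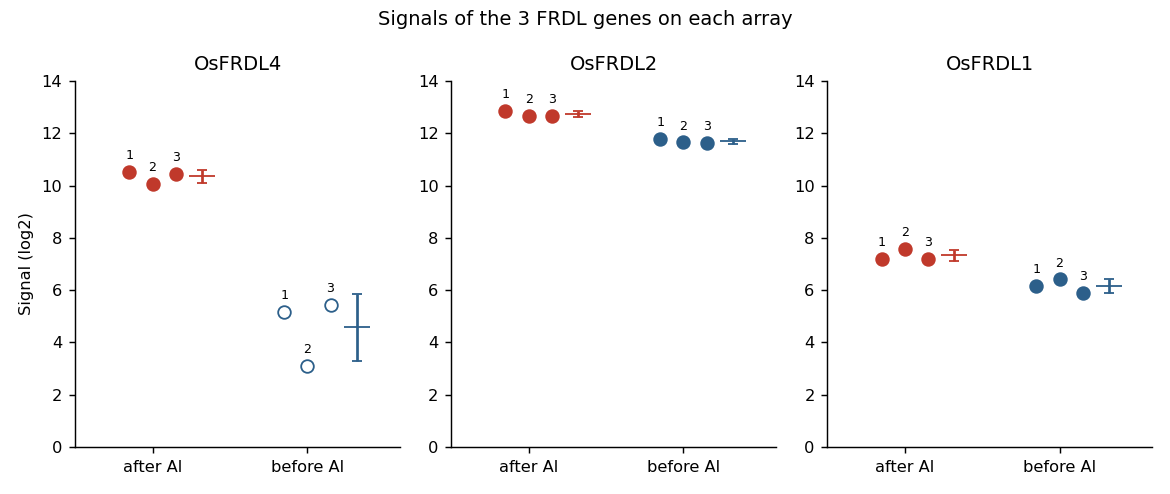
Log2 signal of OsFRDL4, OsFRDL2 and OsFRDL1 on each array, after Al on the left of each panel and before Al on the right. Numbers mark the arrays of a group, filled circles are present calls, open circles absent calls, and the bars are means ± SD (n = 3). OsFRDL4 lies at 10.07 or more after Al, against absent calls between 3.11 and 5.44 before Al, while the groups of the other 2 genes are about 1 log2 unit apart.

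The changes were compared between the genes through the difference of 2 signals on the same array. For OsFRDL4 they rest on signals before Al that were not called present, and they are no lower limits. On the measured signals OsFRDL4 changed by 4.73 log2 units more than OsFRDL2 and by 4.61 more than OsFRDL1 (SEs 0.73 and 0.91). Across processing settings these differences went down to 3.92 and 3.95, and with 1 array left out to 4.02 and 3.75. In both pairs the 3 arrays after Al did not overlap the 3 before Al. The exact permutation p was 0.10 for each (two-sided, 20 splits of the arrays), which is the smallest this design allows, and 0.15 after adjustment over the 3 pairs. The gap of 4.63 between the groups in OsFRDL4 fixed both outcomes in advance, so they add no support. OsFRDL2 and OsFRDL1 changed by amounts 0.12 ± 0.23 apart, with OsFRDL1 the larger, and there the groups overlapped (exact permutation p = 0.60, also after adjustment). The sign of this last difference turned with an offset of 16 added to the linear signals (0.03).

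Another antiporter probe set, which did not align to the OsFRDL4 locus, was also higher after Al. Its design name is shared with the OsFRDL4 probe set, its name marks it as cross-hybridising, and it was singled out after its values were seen. All 11 of its probes match LOC_Os12g06050 on chromosome 12 and LOC_Os05g33910 on chromosome 5, both described as antiporters, and 1 probe also matches OsFRDL4. The annotation also lists a gene model from another source that 6 of its probes and 5 of those of OsFRDL4 match. Its signals were 8.13, 7.90 and 7.94 after Al, against 4.19, 3.41 and 2.77 before Al, again with absent calls on the 3 arrays before Al. It was at least 22.1-fold higher after Al (log2 change 4.53 ± 0.35, SE; limma, adjusted p = 1.00e-05). How much of this signal comes from the OsFRDL4 transcript was not tested. The remaining probe set of that design name, for LOC_Os12g25160, was absent on all 6 arrays, at 1.54 ± 1.07 after Al and 1.49 ± 0.25 before Al (SD, n = 3 each).

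All 10 measured genes of a list of other Al tolerance genes also rose after Al, against 14.3% of all tested probe sets, with a median log2 change of 0.94. The median was the same with absent genes at their bound. This list, like those below, was chosen with earlier results of these data known. The count of higher genes is therefore no independent support. The changes of OsFRDL2 and OsFRDL1 both lay within the range of the transporters of this list. STAR1, which binds ATP in a transporter complex for UDP-glucose, rose by 1.86 ± 0.06 (log2 change, SE). The membrane subunit STAR2 rose by 0.90 ± 0.06. OsALS1, which moves Al into the vacuole, rose by 1.00 ± 0.05, and Nrat1, which takes Al up into the cell, rose by 0.97 ± 0.05. The peptide OsCDT3 rose by 1.43 ± 0.18, the magnesium transporter OsMGT1 by 0.76 ± 0.20, the expansin OsEXPA10 by 0.52 ± 0.09 and the factor ASR5 by 0.49 ± 0.08.

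The zinc finger factor ART1, which controls OsFRDL4 and many of these genes, had signals of 10.04 ± 0.14 after Al and 9.68 ± 0.12 before Al (SD, n = 3 each), a log2 change of 0.35 ± 0.10 (SE). OsWRKY22, a factor known to act on the OsFRDL4 promoter, was absent on all 3 arrays before Al, like OsFRDL4. It stood at 8.44 ± 0.35 after Al and 1.02 ± 0.17 before Al (SD, n = 3 each), at least 53.1-fold higher. The count of genes higher in this list was 8 to 10 with 1 array left out. In limma fits that left out 1 array, ART1 did not pass without the third after Al (adjusted p = 0.0639), the first before Al (0.0559) or the second before Al (0.0802). OsMGT1 did not pass without the second array of either group, at 0.0592 when it was left out after Al and at 0.0543 before Al.

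**Figure D2:**
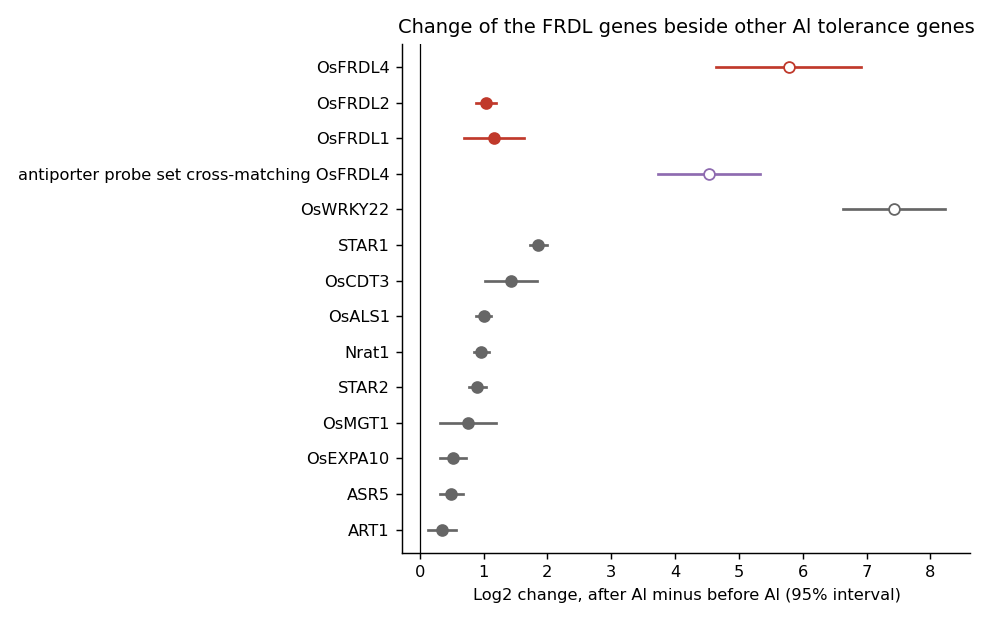
Log2 change (after Al minus before Al) with its 95% interval for the 3 FRDL genes (red), the antiporter probe set that cross-matches OsFRDL4 (purple) and 10 other Al tolerance genes (grey). Open circles mark probe sets absent on all arrays before Al, whose change has only a bound. OsWRKY22 is plotted at 7.42 and OsFRDL4 at 5.78, and the rest of the grey genes lie between 0.35 and 1.86.

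Genes described as transparent testa 12 proteins, after the Arabidopsis MATE transporter of the seed coat, had 8 higher and 5 lower of 24 measured, against 14.3% higher and 15.9% lower of all tested probe sets. Their median log2 change was 0.11. LOC_Os10g20350, absent on all arrays before Al, had a bound of 2.69-fold higher after it, equal to its measured fold. It stood at 7.13 ± 0.19 after Al and 5.70 ± 0.07 before Al (SD, n = 3 each). LOC_Os03g08900 rose by 1.18 ± 0.19 (log2 change, SE) and LOC_Os04g30490 by 0.76 ± 0.13. LOC_Os05g48040 fell by 0.76 ± 0.18, LOC_Os08g43654 fell by 0.66 ± 0.20 and LOC_Os03g37411 fell by 0.63 ± 0.18. The count of lower genes was 3 when the third array after Al or the second before Al was left out. The call of LOC_Os08g43654 was lost in 4 of the 6 fits without 1 array, all but those without the first or second after Al. That of LOC_Os03g37411 was lost in 3, those without the second or the third after Al or the second before Al.

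A second description, antiporter/ drug transporter, is the one OsFRDL1 and OsFRDL2 carry, and its list was added after the descriptions were read. Of its 6 other measured genes, 1 was higher and 1 lower, near the 14.3% and 15.9% of all tested probe sets, and their median log2 change was -0.20. LOC_Os03g62270 rose by 1.13 ± 0.20. LOC_Os01g73690 fell by 0.32 ± 0.10, a call that held in 1 of the 6 fits without 1 array, the one that left out the first array after Al. There 2 genes were lower.

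Genes for enzymes of citrate and organic acid metabolism were taken by their descriptions: citrate synthases, ATP-citrate synthases, aconitases, isocitrate and malate dehydrogenases and phosphoenolpyruvate carboxylases. Of 27 measured, 2 were higher and 4 lower, against 14.3% higher and 15.9% lower of all tested probe sets. Their median log2 change was -0.03. The mitochondrial citrate synthase genes LOC_Os02g10070 and LOC_Os11g33240, which form citrate, had log2 changes of 0.07 ± 0.07 and -0.19 ± 0.07 (SE) and did not pass (limma, adjusted p = 0.491 and 0.0685). An ATP-citrate synthase gene (LOC_Os12g37870), which splits citrate in the cytosol, rose by 0.28 ± 0.08 and an isocitrate dehydrogenase subunit (LOC_Os04g40310) by 0.21 ± 0.06. Another isocitrate dehydrogenase (LOC_Os05g49760) fell by 0.77 ± 0.18, and a mitochondrial malate dehydrogenase (LOC_Os08g33720) and an isocitrate dehydrogenase subunit (LOC_Os02g38200) fell by 0.39 ± 0.05 and 0.38 ± 0.07. Leaving out the second array of either group left 0 genes of this list higher, and leaving out the first array before Al left 1.

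**Figure D3:**
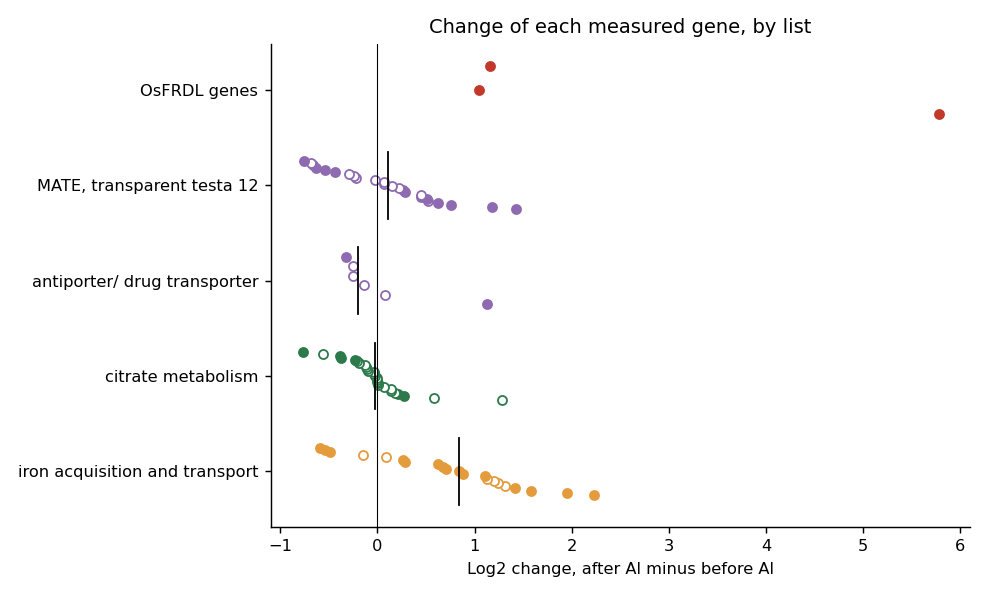
Log2 change (after Al minus before Al) of each measured gene, in rows for the 3 FRDL genes, MATE genes described as transparent testa 12 proteins, other genes described as antiporter/ drug transporter, citrate metabolism and iron acquisition and transport. Filled circles passed the test, and black bars are medians (0.11, -0.20, -0.03 and 0.84 for the 4 lists). OsFRDL4, at 5.78, lies beyond all genes of these lists, and the citrate metabolism genes cluster around 0.

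Iron genes were examined because OsFRDL1 is known from iron translocation. Of 21 measured genes for iron uptake, chelation, transport and storage, 12 were higher and 3 lower after Al, against 14.3% higher and 15.9% lower of all tested probe sets. Their median log2 change was 0.84. The iron transporter OsIRT1, called present in 2 of 3 samples before Al, rose by 2.23 ± 0.36 (log2 change, SE). TOM1, which releases the iron chelator deoxymugineic acid, rose by 1.95 ± 0.63, and the nicotianamine synthase OsNAS3, called present in 1 of 3 samples before Al, by 1.58 ± 0.28. The factor IDEF1 fell by 0.59 ± 0.17, the phenolics transporter PEZ1 fell by 0.54 ± 0.09 and the vacuolar iron transporter OsVIT2 fell by 0.48 ± 0.08. PEZ1 is also in the MATE list, as is its relative PEZ2.

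The count of higher iron genes depended on single arrays. It was 6 without the second array after Al and 6 without the third before it, against 12 with all arrays. The call of TOM1 was lost in both of these fits (limma, adjusted p = 0.145 and 0.140) and with the third array after Al left out (0.0838) or the first before Al left out (0.129). IDEF1 did not pass when the first (0.0831) or the second array after Al (0.0935), or the first (0.102) or the third before Al (0.111), was left out. The call of OsFRDL1 held without each array in turn, at an adjusted p of 0.0122 or less.

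Within the groups, OsFRDL1 and most iron genes ranked the arrays alike, a pattern noticed after the values were seen. In OsFRDL1 the order after Al was the second array, then the third, then the first, and before Al it was the second, then the first, then the third. The same order in both groups was found in 12 of the 21 iron genes, against 532 of 25283 tested probe sets (2.10%). The lower OsFRDL1 signals after Al were nearly tied, at 7.20 and 7.19, against an SE of 0.21 for its log2 change. The match of the full order therefore rests partly on a difference too small to fix it. The second array was the highest in both groups in 14 of the 21 iron genes and in 8.53% of all tested probe sets. The numbers come from the sample titles, and arrays with the same number were not taken as linked between the groups. TOM1 had signals of 9.42, 11.09 and 10.22 after Al, against 7.71, 9.92 and 7.23 before Al, so its second array before Al lay above the first array after Al. OsIRT1 had signals of 7.47, 9.16 and 8.30 after Al, against 6.00, 6.34 and 5.88 before Al, with no overlap. These genes share the same 6 arrays, so their orders are not independent of each other.

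OsFRDL4 and OsFRDL2 had other orders on the measured signals. Whether the orders of the genes differ beyond the spread of the arrays was not tested. In OsFRDL4 the order was the first array, then the third, then the second after Al, and the third, then the first, then the second before Al. The order before Al rests on signals that were not called present. That full order was found in 0 of 21 iron genes and in 1.77% of all tested probe sets. In OsFRDL2 it was the first, then the third, then the second after Al, and the first, then the second, then the third before Al. The lower OsFRDL2 signals were nearly tied in both groups, at 12.68 and 12.67 after Al and at 11.65 and 11.64 before Al. Its full order is therefore not fixed by these values. That full order was found in 1 of 21 iron genes and in 2.89% of all tested probe sets. Among the 10 other Al tolerance genes, 1 had the order of OsFRDL1 and 0 that of OsFRDL4 or OsFRDL2.

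**Figure D4:**
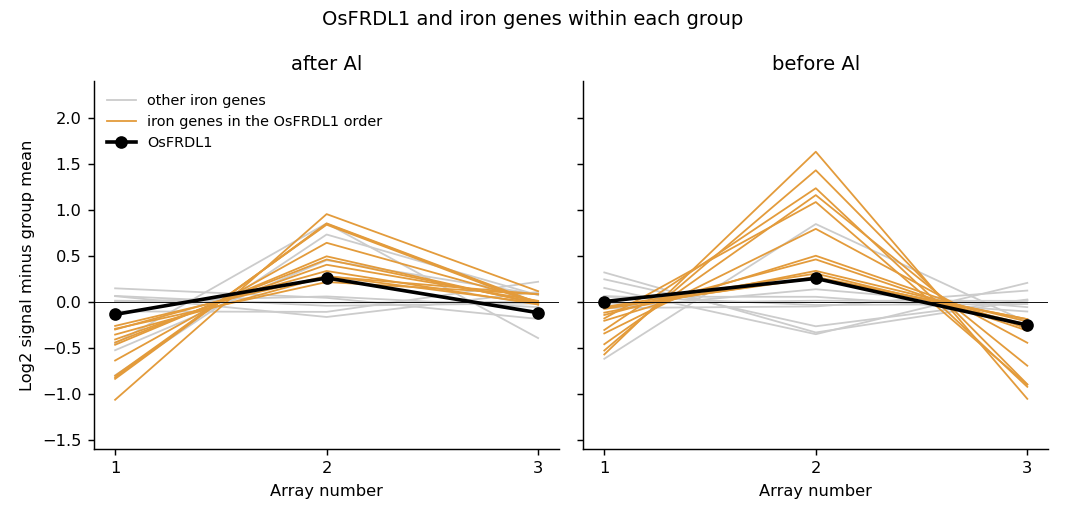
Log2 signal minus the group mean on the arrays of each group, after Al on the left and before Al on the right, for OsFRDL1 (black), 12 iron genes with the same order of arrays in both groups (orange) and 9 other iron genes (grey). Lines join values of 1 gene and stand for no sequence. In the orange genes, as in OsFRDL1, the second array of each group lies above the other two.

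Because OsFRDL1 acts in the pericycle, markers of the stele and of mature root were set beside it. OsPHO1;2, which loads phosphate into the xylem, stood at 11.69 ± 0.18 after Al and 11.27 ± 0.24 before Al (SD, n = 3 each). Its log2 change was 0.42 ± 0.12 (SE; limma, adjusted p = 0.0288), a call lost in 4 of the 6 fits without 1 array and kept when the third after Al or the second before Al was left out. The other stele marker, OsHKT1;5, was present on no array. Of the 3 mature root markers, the silicon efflux transporter Lsi2 rose by 0.71 ± 0.10, while OsCASP1 (-0.13 ± 0.11) and Lsi1 (-0.31 ± 0.10) did not pass. The summed linear signal of these 3 ran from 8349 to 10694 after Al and from 10279 to 12129 before Al. For the 4 markers of root tip and ground tissue it ran from 2877 to 3368 after Al and from 3679 to 4047 before Al. Of these, OsSCR1 fell by 0.93 ± 0.20 and OsPIN2 fell by 0.35 ± 0.08, while QHB (0.21 ± 0.17) and OsSHR1 (-0.08 ± 0.10) did not pass. Each sum is weighted towards its brightest probe set, OsPIN2 for root tip and ground tissue and Lsi1 for mature root. The sums therefore do not describe the markers as a set. The part of these markers in the OsFRDL1 result was not tested.

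Some genes beside OsFRDL4 on chromosome 1 were higher after Al as well. Within 50 kb, 10 probe sets were tested, of which 4 were higher and 1 lower, against 14.3% and 15.9% of all tested probe sets. The count of higher ones includes probe sets that reached the filter only through their calls after Al. Others in it lost their call with 1 array left out. The count is no support on its own. To the right of OsFRDL4, beyond its 3' end, 3 of 5 were higher and 1 lower, and to the left 1 of 5 was higher. The nearest was LOC_Os01g69020, described as a fibroin heavy chain precursor, which lies 669 bases away on the opposite strand, so that the genes face each other with their 3' ends. It had signals of 6.41, 7.06 and 7.19 after Al, against 5.41, 4.95 and 5.14 before Al. It was absent on all 3 arrays before Al, and its bound, equal to the measured fold, was 3.30-fold higher after it (limma, adjusted p = 0.00104).

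The next gene on that side, LOC_Os01g69030, encodes a sucrose-phosphate synthase, an enzyme of sucrose synthesis, and lies 4421 bases from OsFRDL4. It had signals of 6.49, 6.80 and 6.25 after Al, against 5.32, 5.14 and 5.56 before Al, where it was absent on all 3 arrays. Its bound, again equal to the measured fold, was 2.26-fold higher after Al (limma, adjusted p = 0.00559). LOC_Os01g69050 had a log2 change of 0.77 ± 0.23 (SE) and passed, but its call was lost in every fit that left out 1 array other than the first after Al. LOC_Os01g69080 fell by 0.69 ± 0.07. To the left, LOC_Os01g68970 passed with a log2 change of 0.22 ± 0.07, a call lost in each of the 6 fits without 1 array.

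Neighbours of the other 2 genes were counted in the same way, against 14.3% higher and 15.9% lower of all tested probe sets. Near OsFRDL2 only 3 probe sets were tested, too few to compare, and 1 was higher. It was LOC_Os10g14011, with a log2 change of 0.65 ± 0.18 (SE). It did not pass when the second array after Al (limma, adjusted p = 0.0614) or, before Al, the second (0.0546) or the third (0.0639) was left out. Near OsFRDL1, 10 were tested and 2 were higher. They were LOC_Os03g11660, a cysteine synthase, with 0.36 ± 0.08, and LOC_Os03g11780, with 0.73 ± 0.25, whose call was lost in 5 of the 6 fits without 1 array. The nearest tested neighbour of OsFRDL1, the alpha-glucosidase gene LOC_Os03g11720 at 689 bases, had a log2 change of 0.12 ± 0.06 and did not pass (limma, adjusted p = 0.141).

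**Figure D5:**
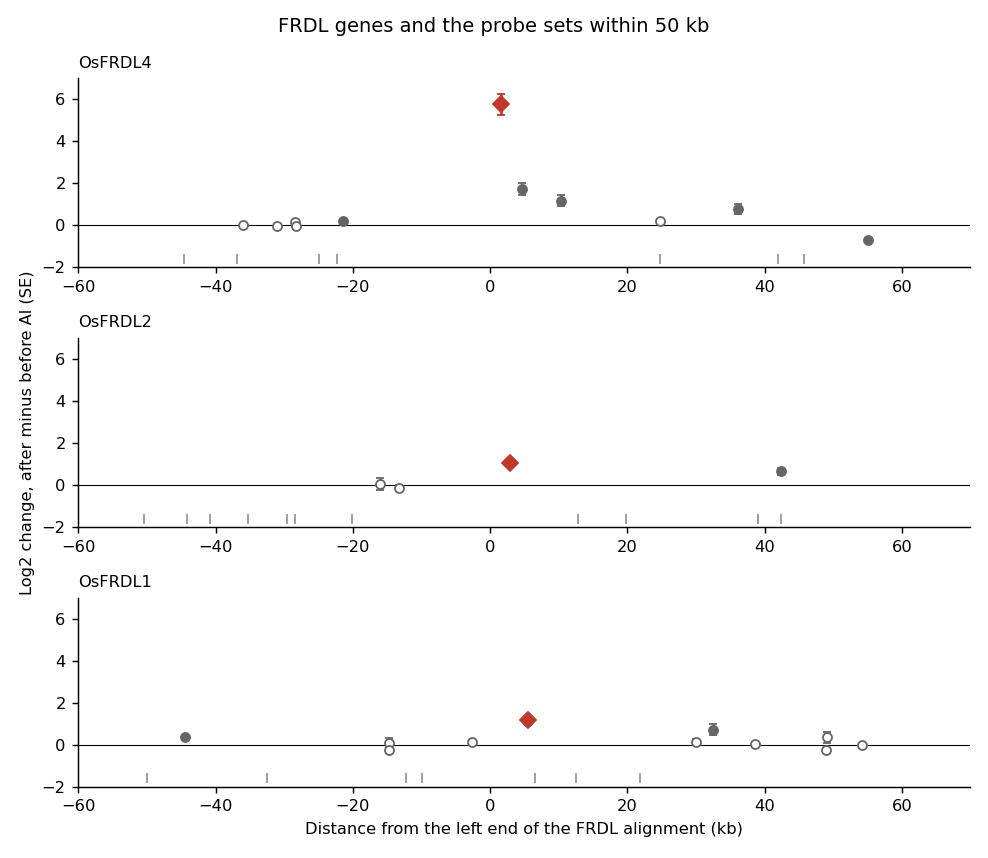
Log2 change (after Al minus before Al, ± SE) of each FRDL gene (red diamond) and of tested probe sets within 50 kb, by the distance of their centre from the left end of the FRDL alignment. Filled circles passed the test, open circles did not, and grey ticks mark probe sets too often absent to be tested. The 2 nearest probe sets to the right of OsFRDL4 lie at 1.72 and 1.17.

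Genes with the most similar pattern were found by the root mean square difference of the 6 log2 signals after each gene's own mean was taken off, among 16493 tested probe sets with 1 described gene. For OsFRDL4 the nearest was a jasmonate O-methyltransferase (LOC_Os06g20960), at a difference of 0.47, which rests partly on signals before Al that were not called present. It stood at 9.94 ± 0.11 after Al and 4.57 ± 0.82 before Al (SD, n = 3 each). Its bound was 41.6-fold higher, equal to the measured fold. A xylanase inhibitor (LOC_Os11g47600) followed at 0.56, with a bound of 26.5-fold higher that also equals the measured fold. The CYP72A1-type cytochrome P450 LOC_Os01g43740 followed at 0.57 and was at least 29.9-fold higher. All 3 were absent on every array before Al. The blue copper protein LOC_Os08g37660, at a difference of 0.60, was present on all 6 arrays and rose by 5.59 ± 0.14 (log2 change, SE).

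For OsFRDL2 the differences were smaller. The nearest was LOC_Os03g13840, described as ERD7, at 0.05, with a log2 change of 1.03 ± 0.08. A receptor kinase (LOC_Os01g02300), an elicitor-inducible gene (LOC_Os06g06180) and a C2 domain gene (LOC_Os03g09840) followed at 0.05 to 0.06. Of these, LOC_Os01g02300 was called present in 1 of 3 samples before Al. For OsFRDL1 the nearest was a receptor-like kinase (LOC_Os12g43640), at 0.10, which rose by 1.24 ± 0.17. A cell wall protein gene (LOC_Os01g45360), the MYB factor gene LOC_Os05g10690 and an AP2 domain gene (LOC_Os03g15660) followed at 0.11 to 0.12. The MYB factor gene was likewise called present in 1 of 3 samples before Al. The difference between OsFRDL2 and OsFRDL1 was 0.24, and OsFRDL4 lay 2.48 from each of them.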

How the data were processed

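Both deposited tables hold log2 signals of the 6 arrays (largest difference 0.0), made by the authors with MAS5 per the submitters' processing notes. No label or header states the scaling target. Linear values had trimmed means of 497.0 to 497.2 on every array. The second deposited table also holds detection calls, a p-value and a fold change. This p-value and fold were checked for the FRDL probe sets and those that share the OsFRDL4 design name. There the p-value equalled an unequal-variance test on log2 signals and was unadjusted, and the fold was the ratio of mean linear signals. The column names number the arrays after Al differently from the sample titles, and the title numbers are used.

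The test was limma 3.58.1 under R 4.3.3, using lmFit followed by eBayes with a trend on intensity. It took after Al minus before Al, without covariates, for probe sets with present calls on 3 or more of the 6 arrays. P-values were adjusted by Benjamini-Hochberg over all 25283. The fit was tested on simulated data. A bound sets the mean of the present group against, per array, the higher of the absent signal and the lowest signal called present, and leaves out their spread. It is no confidence limit, and it equals the measured fold where the absent signals are the higher.

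List genes were taken from probe sets assigned to 1 gene, the brightest standing for the gene. Lists came from locus identifiers of known rice genes or from words in the product descriptions, with isopropylmalate dehydrogenases left out. Of 24 iron genes, 23 had such a probe set and 21 were tested. All Al tolerance genes and markers of the root are named, and from each other list the 3 largest passing rises and falls. The 2 citrate synthases, PEZ2, the neighbours and the cross-matching probe set were named after their values were seen. The 4 nearest genes per FRDL gene are named by the difference described. Members and lists were chosen with earlier results of these data known, and gene symbols come from prior knowledge. Deviations from the group means of arrays with the same number correlated at 0.00 to 0.09, so the numbers were not taken as pairs.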

Additional observations from a re-analysis of the deposited data

How the results depend on the processing

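The 3 FRDL changes kept their direction and passed in every alternative that could be run: no filter on dim probe sets, no intensity trend, quantile normalization, an offset of 16 on the linear signals, a replicate block and 1 array left out. OsFRDL4 gave no value where presence on all 6 arrays was required. Its log2 change ran from 4.96 (offset) to 5.85 (quantile normalization), and from 5.04 to 6.21 with 1 array left out. OsFRDL2 ran from 1.04 to 1.04 across settings and from 0.98 to 1.09 with 1 array left out, and OsFRDL1 from 1.01 to 1.20 and from 1.03 to 1.29. With the replicate block (limma), the adjusted p was 2.27e-06 for OsFRDL4, 1.21e-06 for OsFRDL2 and 0.00173 for OsFRDL1, and 3710 probe sets were higher, against 3626 without it. The block changed none of the list counts by over 1.5 times, and the iron list then had 16 higher genes.

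Counts of smaller lists moved more. Higher iron genes numbered 7 without the filter and 4 without the trend, and 6 to 15 with 1 array left out, against 12. Higher citrate metabolism genes numbered 0 without the filter and 0 without the trend, and 0 to 2 with 1 array left out, against 2. Lower MATE genes numbered 3 without the trend and 3 to 5 with 1 array left out, against 5. In the antiporter/ drug transporter list, 0 were lower without the filter or the trend and 0 to 2 with 1 array left out, against 1. The cause of these moves was not tested. Of 72 named or listed genes that passed, 25 lost their call in at least 1 alternative, and 0 of these genes reversed. The difference between OsFRDL4 and OsFRDL2 ran from 4.02 to 5.20, that between OsFRDL4 and OsFRDL1 from 3.75 to 5.17, and that between OsFRDL2 and OsFRDL1 from -0.27 to 0.04, each with 1 array left out.

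Signals that were not called present limit OsFRDL4, whose size before Al rests on 3 absent values. With 3 arrays a group, an exact test of a single value cannot reach 0.05.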

Other observations

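Lsi2 is a silicon efflux transporter, although the deposited annotation describes LOC_Os03g01700 as a citrate transporter family protein. It had log2 signals of 9.58 ± 0.12 after Al and 8.88 ± 0.10 before Al (SD, n = 3 each), with a log2 change of 0.71 ± 0.10 (SE). That change was smaller than the 1.04 of OsFRDL2 and the 1.16 of OsFRDL1, and the differences were not tested.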
